A study of Rattus norvegicus with 47 samples.

Results

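The kidney cortex of lithium-treated rats was compared with that of control rats after 14 days, across all genes. The comparison took the 12 libraries whose labels give lithium or control and 14 days, of 47 libraries in the series: 6 from lithium rats and 6 from control rats, each library from 1 rat. The rats were male Wistar rats. Lithium rats had lithium carbonate in their chow (60 mM by the labels; by the methods of the study a lower dose was fed in the first week, and lithium rats had a salt block, as did all rats given lithium), and control rats had chow without lithium. A further group of the same age took lithium with amiloride in the drinking water (0.2 mM). Its 14-day libraries entered the fit to estimate the spread between rats, and other rats were studied at 28 days and at 6 months. The comparison asks how the cortex of rats given lithium without amiloride differed early, before long exposure. The methods name a salt block only for rats given lithium, so lithium and the block cannot be told apart here.

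Lithium, a mood stabiliser, is filtered by the glomerulus and enters the principal cells of the collecting duct largely through the epithelial sodium channel, where it blunts the response to vasopressin, the hormone that inserts aquaporin-2 water channels. Most of the cortex by mass is proximal tubule, which reabsorbs glucose, amino acids, phosphate and bicarbonate, makes glucose, and secretes organic anions and cations. The distal convoluted and connecting tubules reclaim calcium through a channel, a binding protein and an exchanger that work in sequence.

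The lithium libraries held between 12553282 and 15495910 counts (median 14242616.5) and the control libraries between 10399818 and 13621790 (median 13321168). The 2 sets of totals overlapped, and their means differed by an exact two-sided permutation p of 0.0498. A count was recorded for 17522 to 17856 genes in lithium libraries, against 16737 to 17307 in control libraries, with no overlap (exact permutation p = 0.00216, the smallest that 6 against 6 allows). The share of counts on mitochondrially encoded genes was 15.56% ± 1.71 in lithium and 16.02% ± 2.78 in control libraries (SD, n = 6 each; exact permutation p = 0.766). The markers of cortex were present: the 10 proximal tubule markers summed to a median of 25860 CPM (counts scaled to a common library total) in lithium and 26120 CPM in control libraries, and the 7 podocyte markers to 761 and 661.2 CPM. Of the 10 proximal tubule markers 8 had a log2 fold change under 0 (median -0.27), with Miox called lower and Pck1 called higher; without Pck1 the other 9 summed to 17720 to 21000 CPM in lithium and 22550 to 24840 CPM in control libraries, with no overlap, and the part of this in the results was not tested. Of 6 markers of the inner medulla, which is not cortex, 3 rose and 1 fell, and they summed to between 95.1 and 134 CPM in lithium against 47.07 to 64.9 CPM in control libraries, led by Aqp4; the part of medulla in the results was not tested.

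Of 32545 genes counted, 14179 passed the filter on low counts and were tested with edgeR's quasi-likelihood test, the source of every adjusted p here (Benjamini-Hochberg over all genes tested). A gene was called when its adjusted p was below 0.05 and lithium and control differed by 0.5 or more on the log2 scale (lithium over control). By this rule 1718 genes changed, or 12.1%: 1204 rose with lithium (8.49%) and 514 fell (3.63%). The median log2 fold change over all genes tested was 0.0003. The libraries of both groups did not overlap in 12% of the genes tested and in 974 of the 1718 called genes (56.7%). Of the called genes, 509 rose and 167 fell by at least 1 on the log2 scale, 120 rose and 34 fell by at least 2, and 49 rose and 7 fell by at least 3.

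Rises and falls lay at different levels of expression. Genes that rose had a median level of 4.73 CPM and genes that fell 13.16 CPM, against 20.63 CPM over all genes tested; 67.4% of the risen genes and 45.9% of the fallen genes averaged under 10 CPM. Among the 1816 genes of at least 100 CPM the order of the counts was the other way, with 51 risen and 88 fallen, and among the 71 genes of at least 1000 CPM 1 rose, Pck1, and 12 fell. The called genes that rose gained 18502 CPM in all, of which Pck1 gave 25.2%. The called genes that fell lost 32355 CPM, of which the 5 with the largest losses gave 35.1%.

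**Figure D1:**
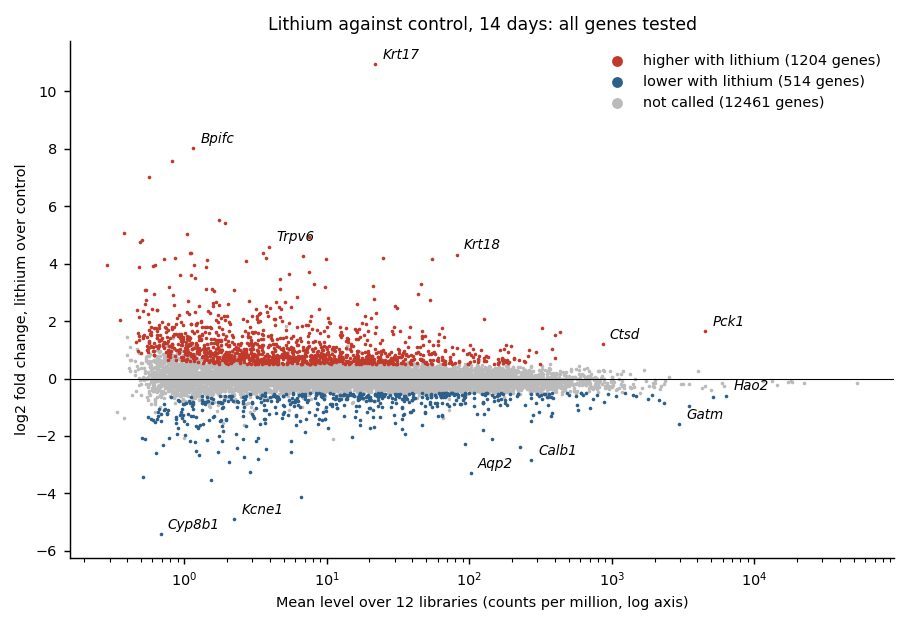
Each point is 1 of the 14179 genes tested, with its mean level over the 12 libraries on a log axis (CPM) and its log2 fold change, lithium over control. Red genes rose (1204), blue genes fell (514) and grey genes were not called; the largest rises lie at low levels, and Pck1 is the red point at 4531 CPM.

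Gene symbols could be read for 8862 of the 14179 tested genes, since they are paired with the gene identifiers only in tables of genes that differed in some comparison of the series. In that set 17.9% were called (12.6% higher, 5.31% lower), with a median log2 fold change of -0.0026, which is the background for the lists and families that follow; of the 5317 genes without a symbol 2.46% were called. A listed gene without a match is left out of its list's counts and is not taken as unchanged. Families likewise hold only tested genes with a symbol, so any tested member without one is left out of the counts. Of the 1587 called genes with a symbol, 1340 belonged to none of the lists and families used here, and 55 carried provisional symbols.

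The largest rises included Krt17 and Bpifc, which had no count in most or all control libraries, and Krt18. Krt17, a keratin of basal and wound epithelium, had 25.7, 40.6 and 69.4 CPM as lowest, median and highest value in lithium libraries, against 0 in 5 control libraries and 0.0768 CPM in the other. Its 3883 counts in lithium and 1 in control libraries give a ratio of 3300 with a 95% counting interval from 592 to 130000. No control rat came near any lithium rat; reads of Krt17 may be shared with its close relatives Krt14 and Krt16, so its level is uncertain. Bpifc, a member of a lipid-binding protein family, had no count in control libraries and 1.69, 2.26 and 2.91 CPM in lithium libraries, which makes it at least 57.5-fold higher against a floor of 3 counts over the control group. The keratin Krt18 had 99.2, 163.8 and 212 CPM in lithium and 5.76, 7.53 and 9.92 CPM in control libraries (log2 fold change 4.31 ± 0.23 SE, adjusted p = 2.43e-10).

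Among the 8 keratins tested 7 rose and none fell, with a median log2 fold change of 2.14. Krt8, the partner of Krt18 in simple epithelium, rose by 1.75 and Krt19 by 2.94, and Krt8 also ranked among the 10 largest gains in level, with 503.7 ± 67.5 CPM in lithium and 149.6 ± 11.97 CPM in control libraries (SD, n = 6 each). Lamb3, a laminin chain of epithelial basement membranes, had 9.25, 12.6 and 22.4 CPM in lithium and 0.922, 1.56 and 2.3 CPM in control libraries (3.30 ± 0.30, adjusted p = 2.13e-07), and the laminin chain gene Lama3 rose by 1.34. Itgb4, an integrin chain of hemidesmosomes, rose by 1.92 ± 0.09 (adjusted p = 1.22e-10). In none of these genes did a control library reach the lowest lithium library. Of the 10 matched genes of the 30 in the stratified epithelium list 5 rose and 1, the water channel Aqp3, fell (median 0.63), with Sprr1a, a cornified envelope protein, at 4.17 and Sfn, a cell cycle regulator, at 2.17.

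Cell cycle inhibitors stood among the 15 largest rises. Cdkn1a, which encodes p21, had 90.3, 102.9 and 117 CPM in lithium and 4.92, 5.11 and 7.37 CPM in control libraries (17.8-fold; adjusted p = 2.36e-14). Its groups were far apart and each was narrow. Cdkn2b, which encodes p15, rose by 4.39 with a median of 1.91 CPM in lithium and 0.117 CPM in control libraries, while the cyclin gene Ccnd1 rose by 0.92 with 387 ± 47.6 CPM in lithium and 204 ± 26.1 CPM in control libraries (SD, n = 6 each). Other genes of this rank were Ccl20, a chemokine that attracts cells bearing CCR6 (15.4 CPM against 0.412 CPM, medians of lithium and control), Trpv6, an epithelial calcium channel (7.67 against 0.302 CPM), Tubb4a, a beta-tubulin (7.13 against 0.307 CPM), Dhrs9, a retinol-oxidising dehydrogenase (2.90 against 0.0765 CPM), Atg9b, an autophagy membrane protein (2.104 CPM against 0), A2ml1, a protease inhibitor (13.1 against 0.434 CPM) and Marchf11, a ubiquitin ligase (6.93 against 0.320 CPM). Mab21l4 and Pinlyp also stood among the 15, at log2 fold changes of 5.50 and 4.35. No lithium library overlapped a control library in any of the 15 genes, which the rule that chose them required.

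Havcr1, Lcn2 and Gdf15 were chosen after their values were seen, and all 3 rose. Havcr1, the kidney injury molecule KIM-1, rose by 3.11 ± 0.49 (adjusted p = 0.000131), though its lithium libraries ranged from 1.37 to 18.8 CPM against 0.756 to 1.23 CPM in control libraries. Lcn2, the injury marker NGAL, rose by 1.86, and Gdf15, a stress-induced cytokine, had 66.8, 87.2 and 129 CPM in lithium and 10.6, 12.2 and 20.7 CPM in control libraries. The lowest lithium library lay above the highest control library in all 3 genes.

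Guca2a and Guca2b encode guanylin and uroguanylin, peptides that raise cyclic GMP in epithelium and promote sodium excretion. Guca2a had 22.2, 31.0 and 82.6 CPM in lithium and 3.38, 3.91 and 5.29 CPM in control libraries (3.24 ± 0.31, adjusted p = 4.43e-07). Guca2b had 19.8, 33.0 and 64.1 CPM in lithium and 2.37, 5.32 and 8.397 CPM in control libraries (2.77 ± 0.30, adjusted p = 2.18e-06). Both rose without overlap, and without lithium library 6, the highest for Guca2a, that gene still rose by 2.86. They are neighbours on chromosome 5, with 0 annotated genes between them, and lie on opposite strands. Their upstream sequences are shown because the pair moved together, as the 250 bases before each start in RefSeq's GRCr8 annotation (Guca2a at chr5:138522196-138522445, plus strand; Guca2b at chr5:138534211-138534460, minus strand), 5′ to 3′ on the strand of the gene, with matches to 4 motifs in capitals.
Guca2a: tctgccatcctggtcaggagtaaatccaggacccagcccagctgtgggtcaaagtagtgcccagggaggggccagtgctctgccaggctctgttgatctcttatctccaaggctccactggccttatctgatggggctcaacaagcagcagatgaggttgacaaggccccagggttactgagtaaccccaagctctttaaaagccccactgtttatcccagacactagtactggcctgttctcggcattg
Guca2b: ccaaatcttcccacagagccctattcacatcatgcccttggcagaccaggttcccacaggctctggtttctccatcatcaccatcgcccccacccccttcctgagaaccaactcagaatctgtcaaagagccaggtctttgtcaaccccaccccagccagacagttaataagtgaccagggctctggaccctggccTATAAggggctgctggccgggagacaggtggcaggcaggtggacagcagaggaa

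The motifs, searched on both strands, were ACGTCA (the core of the cAMP response element), TGANTCA (AP-1), TATAA (the TATA box) and CCAAT (the CCAAT box); none overlapped another in the windows shown. They occur in 7.25%, 6.36%, 24.1% and 34.3% of all 27457 such windows, in the order given. Guca2b held TATAA and Guca2a none of the 4. Among the windows matched to called genes, TGANTCA was present in 8.19% of 830 for genes that rose and in 7.20% of 347 for genes that fell, against 4.90% of the 6893 windows of tested genes with a symbol, and ACGTCA in 7.95% and 4.90%, against 9.5%. TATAA was present in 18% and 19% of these windows, against 13.5%, and CCAAT in 32% and 33.4%, against 34.5%. These shares are descriptions and were not tested.

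**Figure D2:**
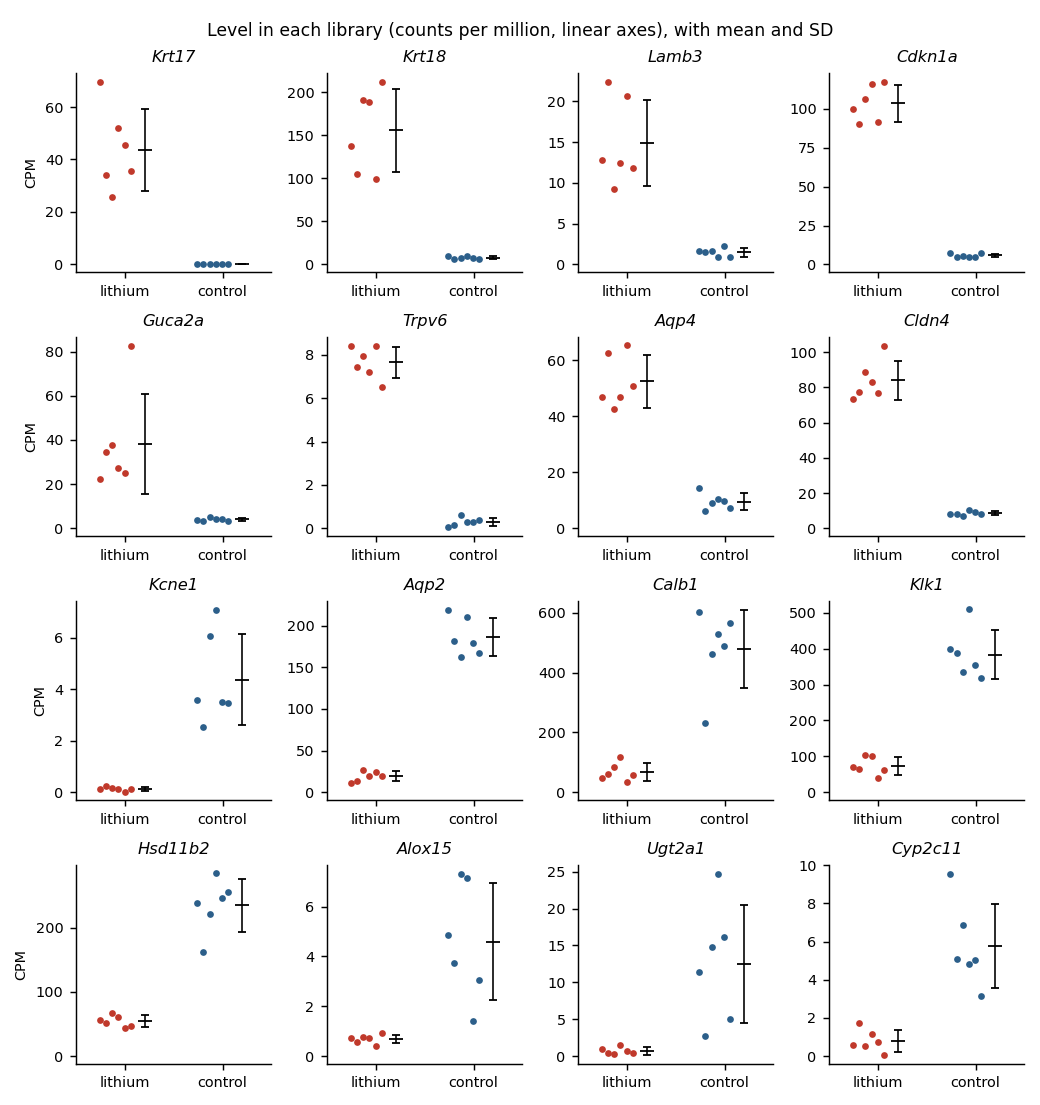
Level of 16 genes in each library (CPM, linear axes starting just below 0), lithium on the left in red and control on the right in blue. The mean and SD of 6 libraries stand beside each group. The upper 8 genes rose and the lower 8 fell; in none do the groups overlap, and Guca2a shows 1 lithium library at 82.6 CPM.

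The largest falls included a potassium channel subunit, the vasopressin-regulated water channel and several enzymes. Kcne1, the accessory subunit of the potassium channel Kcnq1, had 0, 0.138 and 0.258 CPM in lithium and 2.54, 3.54 and 7.07 CPM in control libraries (29.8-fold lower; adjusted p = 9.4e-08). Kcnq1 itself had a log2 fold change of 0.496 ± 0.11, just under the fold threshold (adjusted p = 0.00239), and was called higher with no filter on low counts and without control library 1 or 4 or lithium library 5 or 6 (0.5013 to 0.5894). Aqp2 had 11.1, 19.6 and 26.7 CPM in lithium and 162.5, 180.1 and 219 CPM in control libraries (9.77-fold lower; adjusted p = 1.37e-09). The highest lithium library stood far under the lowest control library for both Kcne1 and Aqp2. That the groups did not overlap was required by the rule that chose the largest falls. The upstream windows of both genes are shown as examples from these falls (Kcne1 at chr11:45077034-45077283, minus strand; Aqp2 at chr7:132590036-132590285, plus strand; same annotation and motifs).
Kcne1: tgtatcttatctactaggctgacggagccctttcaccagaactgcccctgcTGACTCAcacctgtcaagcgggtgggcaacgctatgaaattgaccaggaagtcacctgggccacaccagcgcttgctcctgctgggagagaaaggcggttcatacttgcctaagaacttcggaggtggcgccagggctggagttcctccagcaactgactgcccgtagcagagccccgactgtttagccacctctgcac
Aqp2: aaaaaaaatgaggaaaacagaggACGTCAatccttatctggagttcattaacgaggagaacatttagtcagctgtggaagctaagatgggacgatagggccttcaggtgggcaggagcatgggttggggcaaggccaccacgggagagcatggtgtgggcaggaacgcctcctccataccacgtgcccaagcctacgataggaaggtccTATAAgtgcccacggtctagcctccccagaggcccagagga

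The Kcne1 window held 1 AP-1 match, and the Aqp2 window 1 match to the cAMP response element core, 222 to 227 bases before the start, and 1 TATA match. Enzymes among the 15 largest falls were Ugt2a1, a glucuronosyltransferase (0.233 to 1.54 CPM in lithium, 2.71 to 24.7 CPM in control libraries), Cyp2c11, a male-specific cytochrome P450 of rat liver (0.0709 to 1.74 against 3.15 to 9.54 CPM), and Alox15, a lipoxygenase of arachidonic acid (0.406 to 0.921 against 1.41 to 7.33 CPM). Control libraries were widely spread in all 3. They lay above every lithium library, which the rule that chose the 15 falls required. Reads of Ugt2a1 and Cyp2c11 may be shared with close relatives, which makes their levels uncertain, and the same holds for Timm8a2, a copy of a mitochondrial import gene, whose control libraries ranged from 1.13 to 11.98 CPM. The other falls of this rank were Calb1 and Klk1, described with their pathways, Prima1, the anchor of acetylcholinesterase in membranes (22.8 to 39.5 against 97.0 to 236.5 CPM), Tmem45b, Ptprq, a receptor phosphatase (0.910 to 1.83 against 3.28 to 12.2 CPM), Col26a1, a collagen chain, Skint8, the olfactory receptor gene Olr1332 and RGD1309350.

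Transporters of the distal nephron and collecting duct moved in both directions. Of 6 aquaporins tested 1 rose and 3 fell. Aqp4, a basolateral water channel, had 42.5, 48.8 and 65.3 CPM in lithium and 6.09, 9.43 and 14.5 CPM in control libraries (2.46 ± 0.17, adjusted p = 9.88e-09), whereas Aqp3, another basolateral channel of principal cells, fell by 1.28 on the log2 scale and the abundant Aqp1 of the proximal tubule had -0.05 ± 0.08 (adjusted p = 0.695). Avpr2, the vasopressin receptor of the collecting duct, fell by 1.71 on the log2 scale, with 3.47 to 6.45 CPM in lithium against 9.73 to 20.3 CPM in control libraries. In whole cortex, fewer cells of a type and less RNA per cell cannot be told apart.

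The sodium channel subunits did not move as 1 unit: Scnn1b fell by 1.53 and Scnn1g by 1.35 on the log2 scale, without overlap, while Scnn1a had -0.01 ± 0.15 (adjusted p = 0.97). Hsd11b2, which inactivates glucocorticoids in aldosterone target cells, had 43.4, 53.3 and 67.6 CPM in lithium and 162.5, 242.4 and 285 CPM in control libraries (-2.11 ± 0.13, adjusted p = 1.85e-09). In the list of salt and magnesium transport of the thick limb and distal convoluted tubule 2 of 19 members were called, 1 each way (median -0.17), and Umod, the most abundant member, had -0.20 ± 0.21 (adjusted p = 0.522).

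Calcium transport genes moved in both directions. Calb1, the cytosolic calbindin of the distal tubule, had 34.7, 60.1 and 117 CPM in lithium and 233, 509 and 601 CPM in control libraries (-2.85 ± 0.31, adjusted p = 2.1e-06), and Slc8a1, the sodium-calcium exchanger of the basolateral membrane, had 9.81 to 21.7 against 12.1 to 77.0 CPM (-1.77 ± 0.31, adjusted p = 0.000362). The luminal channels rose: Trpv6 by 4.59 ± 0.24 (adjusted p = 1.96e-10) and Trpv5 by 0.98 ± 0.24 (adjusted p = 0.005), the second with overlap. Control library 2 was the lowest of the control libraries in Calb1, Slc8a1 and Trpv5. Without it their changes were -2.99, -1.98 and 0.82 and all stayed called. That library was also the lowest control in Avpr2, Aqp4, Scnn1a, Scnn1b, Scnn1g, Hsd11b2 and Umod, but not in Aqp2, Aqp3 or Klk1. Its mitochondrial share was 21.17%, the highest of the 12 libraries. The called genes among these kept their calls without it, and what set this library apart was not tested.

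The vitamin D enzymes are linked to these genes through calcitriol, the hormone that Cyp27b1 makes and Cyp24a1 degrades. Cyp27b1 had 17.4, 25.1 and 51.0 CPM in lithium and 2.69, 5.05 and 6.05 CPM in control libraries (2.61 ± 0.31, adjusted p = 5.73e-06), with every lithium library above every control library. Cyp24a1 had 6.97 to 84.9 CPM in lithium and 44.5 to 127 CPM in control libraries (-1.38 ± 0.54, adjusted p = 0.0663), and was called lower without lithium library 1 (-1.82, adjusted p = 0.0184) and in a fit of the 12 lithium and control libraries only (-1.37, adjusted p = 0.0472).

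Of 32 potassium channel genes tested 15 were called (46.9%, beside 17.9% of genes with a symbol): 11 rose and 4 fell, and the median log2 fold change was 0.49. Kcnn3, a calcium-activated channel, had 48 counts in lithium and 2 in control libraries (ratio 20.4, 95% counting interval 5.34 to 173), and Kcne3, another accessory subunit, rose by 1.47. Kcnk1, a two-pore channel of the distal nephron, rose by 0.91 with 26 to 52.3 CPM in lithium against 13.6 to 25.2 CPM in control libraries. Of 36 TRP, chloride and sodium channel genes 6 rose and 3 fell. Ano3, of the anoctamin family, had no count in control libraries and was at least 42.2-fold higher with lithium.

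Claudins, the proteins that set the permeability of tight junctions, rose in 8 of 16 members and fell in none (median 0.73). Cldn4, a claudin of the collecting duct, had 73.6, 80.3 and 104 CPM in lithium and 6.95, 8.38 and 10.7 CPM in control libraries (9.87-fold; adjusted p = 2.22e-12). Cldn6, in other tissues a claudin of embryonic epithelium, rose by 1.61 with 16.8 to 20.6 CPM in lithium against 3.79 to 8.16 CPM in control libraries. The groups did not overlap in either gene.

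The 230 solute carriers tested were called in 55 cases, or 23.9%, with 27 higher and 28 lower, and 150 of the 230 had a log2 fold change under 0 (median -0.16). Their summed level was 30000 to 34100 CPM in lithium and 37700 to 39700 CPM in control libraries, with no overlap. Among the 10 genes with the largest losses of all was Slc7a13, a carrier of aspartate, glutamate and cystine in the proximal tubule, at 1586 ± 431 CPM in lithium and 2682 ± 448 CPM in control libraries (SD, n = 6 each). The largest rises in the family were those of Slc35g1, at 8.02 CPM in lithium and 1.80 CPM in control libraries (medians; 2.14 ± 0.25), and of Slc25a25, a mitochondrial carrier of ATP-Mg and phosphate (2.06 ± 0.34), with 88.3, 166 and 442 CPM in lithium and 30.3, 53.0 and 69.1 CPM in control libraries.

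**Figure D3:**
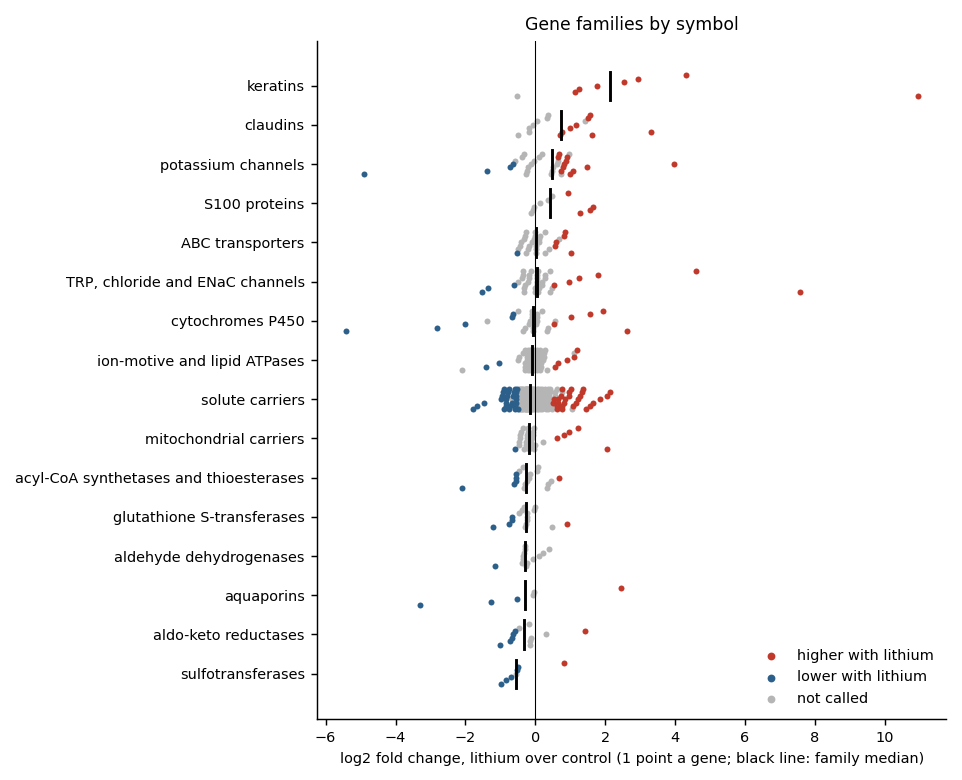
Log2 fold change, lithium over control, of every tested member with a symbol in 16 gene families chosen by symbol. There is 1 point a gene, red for risen, blue for fallen and grey for not called, with a black line at the family median. Keratins and claudins lie to the right with medians of 2.14 and 0.73. Sulfotransferases lie furthest to the left with a median of -0.56, though the groups overlapped in each of the 7 members.

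By substrate, organic anion, organic cation and drug carriers had 3 risen and 6 fallen of 28 (median -0.23). Slco1a1, a carrier of organic anions, had 130 to 293 CPM in lithium against 262 to 441 CPM in control libraries (-0.84 ± 0.21, adjusted p = 0.0049). Slco4a1, which carries thyroid hormones, rose by 1.86 ± 0.15 at a low level, 5.75 to 8.12 CPM in lithium against 1.34 to 2.12 CPM in control libraries. Slco4a1 did not overlap between groups, and Slco1a1 did.

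Amino acid transport had 3 risen and 1 fallen of 21 (median -0.19). Slc7a1, the cationic amino acid carrier, rose by 1.36, Slc38a1, a glutamine carrier, by 1.28 and Slc1a5, a carrier of glutamine and other neutral amino acids, by 1.15, each without overlap. Slc3a1, the most abundant member and a subunit of the cystine carrier, had -0.19 ± 0.13 (adjusted p = 0.311). Among 13 genes of glucose and phosphate transport, Slc5a9 and Slc5a10, carriers of mannose and fructose, fell by 0.89 and 0.74 on the log2 scale, Slc20a1, a phosphate carrier, rose by 0.51, and the abundant phosphate carrier Slc34a1 had -0.33 ± 0.10, under the fold threshold. Slc20a1 lost its call without lithium library 5 or 6 or control library 4 (0.45 to 0.49).

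Carriers of carboxylates and sulfate had 3 risen and 3 fallen of 15 (median -0.16). Slc13a1, the sulfate carrier, fell by 0.91 on the log2 scale (216 to 735 CPM in lithium, 557 to 903 CPM in control libraries), and Slc16a1, a lactate carrier, by 0.84. Slc13a5, a citrate carrier, rose by 1.66 at 0.869 to 3.03 CPM in lithium against 0.229 to 0.846 CPM in control libraries. Proton and bicarbonate transport had 3 risen and 3 fallen of 19, with Atp6v1g3, a proton pump subunit of intercalated cells, at 103 to 168 CPM in lithium against 53.2 to 81.5 CPM in control libraries. Among 22 genes of metal transport and storage 4 rose and 4 fell: Mt3, a metallothionein of brain, rose by 3.61 with a median of 1.71 CPM in lithium and 0.115 CPM in control libraries, and Slc39a8, a carrier of zinc and manganese, fell by 0.95 on the log2 scale.

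In metabolism the largest change in level of any nuclear gene was in Pck1, the cytosolic enzyme that commits carbon to glucose synthesis. Its 6 lithium libraries had 7003, 5358, 5472, 10400, 5583 and 7352 CPM, against 2050, 2788, 2410, 2233, 1892 and 1830 CPM in the control libraries (3.12-fold; adjusted p = 7.19e-07). Every lithium library was well above every control library. It was the only called gene of 14 in the list of gluconeogenesis, ammonia formation and fructose (median -0.18). Fbp1, a phosphatase of glucose synthesis in that list, had -0.34 ± 0.10, under the fold threshold.

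The largest loss in level was in Gatm, which makes the creatine precursor guanidinoacetate in the proximal tubule. The lithium libraries had 717, 1076, 2590, 910.5, 1127 and 2417 CPM, against 4486, 4126, 4303, 4324, 4420 and 4944 CPM in the control libraries (-1.59 ± 0.25, adjusted p = 0.000106). The control libraries were close together, and the lithium libraries were widely spread but all lower. The upstream windows of Pck1 and Gatm are shown as those of the largest gain and the largest loss (Pck1 at chr3:182348322-182348571, plus strand; Gatm at chr3:130129094-130129343, minus strand; same annotation and motifs).
Pck1: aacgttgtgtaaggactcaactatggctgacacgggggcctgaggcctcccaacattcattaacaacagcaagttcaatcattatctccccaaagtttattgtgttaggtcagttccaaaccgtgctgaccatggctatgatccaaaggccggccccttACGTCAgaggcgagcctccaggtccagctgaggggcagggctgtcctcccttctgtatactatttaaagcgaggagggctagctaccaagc
Gatm: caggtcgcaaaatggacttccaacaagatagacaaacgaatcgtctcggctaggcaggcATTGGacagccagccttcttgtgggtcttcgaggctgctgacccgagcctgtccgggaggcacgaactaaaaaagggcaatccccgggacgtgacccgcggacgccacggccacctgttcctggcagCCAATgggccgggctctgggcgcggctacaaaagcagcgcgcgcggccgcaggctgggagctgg

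The Pck1 window held 1 match to the cAMP response element core, 86 to 91 bases before the start, and the Gatm window 2 to the CCAAT box. After Pck1, the largest gains in level were in Ctsd, the lysosomal protease cathepsin D (1204 ± 162 CPM in lithium, 526 ± 81.1 CPM in control libraries), Spp1, osteopontin (652 ± 286 against 214 ± 59.8 CPM), Pigr, the epithelial receptor for IgA (587 ± 216 against 207 ± 19.8 CPM), Krt8, Cyp2e1, an ethanol-inducible P450 (514 ± 78.5 against 254 ± 51.7 CPM), Txnip, which binds thioredoxin (499 ± 40.7 against 306 ± 47.5 CPM), Ccnd1, Flna, a filamin of the cytoskeleton (350 ± 57.5 against 176 ± 16.2 CPM), and Slc25a25. Libraries did not overlap between groups in any of the 10.

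After Gatm, the largest losses in level were those of Hao2, Cyp4a2 and Kap. Hao2, a peroxisomal hydroxyacid oxidase, averaged 5051 ± 670 CPM in lithium and 7616 ± 463 CPM in control libraries, Cyp4a2, which makes 20-HETE from arachidonic acid, 4030 ± 788 against 6319 ± 518 CPM, and Kap, an androgen-regulated gene of rodent kidney, 2374 ± 661 against 4586 ± 906 CPM. Miox, the inositol oxygenase, averaged 1653 ± 348 CPM in lithium and 2998 ± 235 CPM in control libraries, Ctsb, the lysosomal protease cathepsin B, 1366 ± 146 against 2253 ± 270 CPM, and Aadat, an aminotransferase of kynurenine, 1556 ± 340 against 2292 ± 306 CPM. Anpep, aminopeptidase N of the brush border, and Akr1a1, an aldehyde reductase, fell by 0.61 and 0.58 on the log2 scale. Groups overlapped in Aadat, which lost its call without lithium library 4 (-0.48), and in none of the other 9; reads of Cyp4a2 may be shared with its near-copy Cyp4a3. The 2 cathepsins, both proteases of the lysosome, moved in opposite directions, with Ctsd at 1.19 ± 0.11 and Ctsb at -0.72 ± 0.09.

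**Figure D4:**
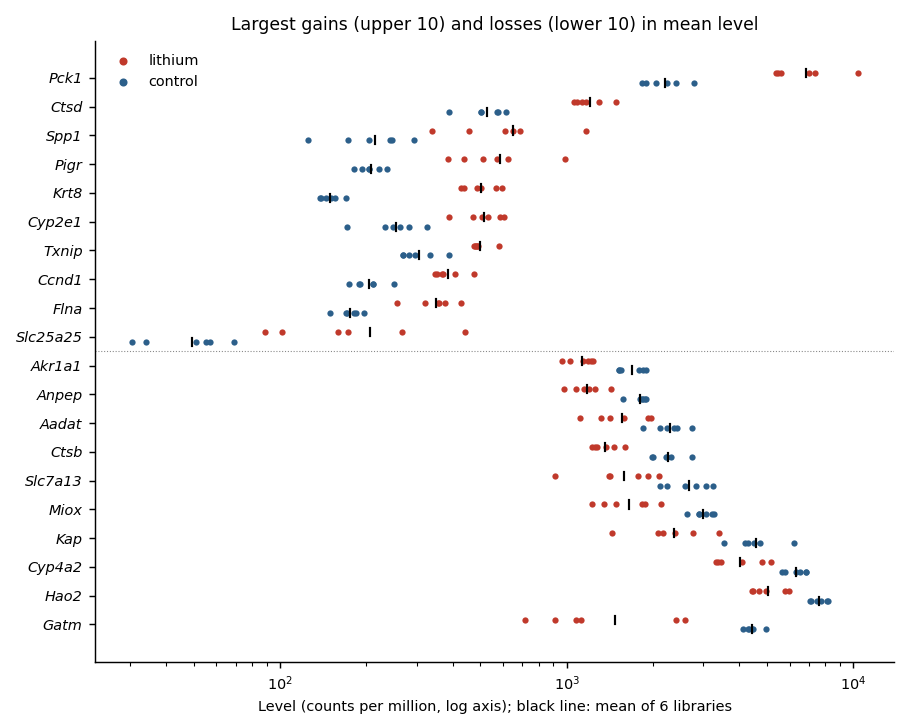
Level of the 10 called nuclear genes with the largest gains and the 10 with the largest losses in mean CPM (log axis), with 1 point a library, lithium in red above control in blue and a black line at the mean of 6. Pck1 stands highest among the gains, and Gatm shows 6 spread lithium libraries below 6 narrow control libraries.

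Amino acid breakdown, serine and one-carbon genes had 5 risen and 4 fallen of 29 (median -0.17). Beside Gatm and Hao2, Bcat1, the cytosolic branched-chain aminotransferase, rose by 2.69 ± 0.35 with 2.14 to 7.35 CPM in lithium against 0.461 to 1.18 CPM in control libraries, and Asns, asparagine synthetase, by 1.12. In the list of amino acid and endoplasmic reticulum stress, 8 of 16 rose and none fell (median 0.46). Atf3, a stress transcription factor, had 9.28 to 17.3 CPM in lithium and 2.37 to 3.33 CPM in control libraries (2.18 ± 0.23, adjusted p = 1.36e-06). Trib3, a pseudokinase, rose by 1.92, and Hspa5, the chaperone BiP and the most abundant member, had 0.36 ± 0.11, under the fold threshold. Tryptophan and NAD genes had 3 fallen and none risen of 12 (median -0.32), namely Afmid, Kynu and Qprt, enzymes of the kynurenine route to NAD, by 0.59, 0.54 and 0.52 on the log2 scale. Kynu lost its call without lithium library 2 or control library 4, and Qprt without lithium library 2 or 4 or control library 4, when their values were -0.50 or nearer 0.

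Glycolysis genes had 4 risen and 1 fallen of 16 (median -0.03). Pfkfb3, which makes the activator of phosphofructokinase, had 44.7, 51.1 and 53.9 CPM in lithium and 12.4, 15.8 and 18.7 CPM in control libraries (1.67 ± 0.10, adjusted p = 7.7e-10), Pfkp and Hk1, a phosphofructokinase and a hexokinase, rose by 0.63 and 0.62, and the abundant Eno1, an enolase, fell by 0.60 on the log2 scale. The groups did not overlap in any of these 4 genes. Fatty acid oxidation and ketone genes stayed mostly under the fold threshold, with 2 risen and 1 fallen of 26, though 22 of the 26 lay under 0 (median -0.24); Acsm2, the most abundant, had -0.34 ± 0.07 (adjusted p = 0.00106). No gene of 5 in the pentose phosphate pathway and 1 of 17 in cholesterol synthesis and uptake was called.

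Enzymes that conjugate, reduce or oxidise small molecules were counted by family. Sulfotransferases had 5 fallen and 1 risen of 7 (median -0.56), though the groups overlapped in each of the 7. Of all genes with a symbol, 18.4% did not overlap between groups. Aldo-keto reductases had 5 fallen and 1 risen of 12 (median -0.33) and glutathione S-transferases 4 fallen and 1 risen of 16 (median -0.28). Acyl-CoA synthetases and thioesterases had 5 fallen and 1 risen of 18 (median -0.27). Gsta1, a glutathione S-transferase, had 177, 220.2 and 312 CPM in lithium and 445, 537 and 602 CPM in control libraries (-1.22 ± 0.13, adjusted p = 2.42e-06), and Akr7a3, an aflatoxin aldehyde reductase, had 364, 465 and 616 CPM against 808, 907 and 1201 CPM (-1.02 ± 0.12, adjusted p = 4.59e-06). Both were lower in every lithium library than in any control library, and reads of genes in these families, Gsta1 among them, may be shared with close relatives. In the list of cytochromes P450 and conjugation 4 rose and 2 fell of 25 (median -0.09). Cytochromes P450 as a family were called in 10 of 29, 5 each way: Cyp1b1 rose by 1.58, and Cyp8b1, a bile acid hydroxylase of liver, had 2 counts in lithium and 100 in control libraries (58.9-fold lower, 95% counting interval 15.9 to 493).

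In the list of renin-angiotensin, kinin, endothelin and nitric oxide, 2 rose and 5 fell of 15 (median -0.18). Klk1, the tissue kallikrein made in the connecting tubule, had 38.8, 67.9 and 104 CPM in lithium and 317, 371 and 509 CPM in control libraries (-2.38 ± 0.22, adjusted p = 2.44e-07), and Bdkrb2, the receptor for its product bradykinin, rose by 1.41. Agt, angiotensinogen, fell by 1.21 on the log2 scale (16.3 to 42.3 CPM in lithium, 39.8 to 88.3 CPM in control libraries). Of 16 prostaglandin and leukotriene genes 4 rose and 2 fell: Alox5, the enzyme that starts leukotriene synthesis, had 1.77 to 3.64 CPM in lithium against 0.205 to 0.742 CPM in control libraries (2.62 ± 0.25, adjusted p = 3.97e-07), opposite to Alox15, and Ptger1, a receptor for prostaglandin E2, fell by 1.55 on the log2 scale. Epgn, a ligand of the epidermal growth factor receptor, had no count in control libraries and was at least 28.3-fold higher with lithium. In the circadian clock list 1 rose and 2 fell of 13.

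Genes without a symbol gave 88 rises (1.66% of those tested) and 43 falls (0.809%), and 1.26% of them did not overlap between groups, against 18.4% of genes with a symbol. The largest rises at a mean of at least 1 CPM were ENSRNOG00000020164, with 5.28 to 11.1 CPM in lithium against 0.614 to 1.97 CPM in control libraries (2.66 ± 0.24, adjusted p = 2.07e-07), and ENSRNOG00000046001, with 1.94 to 4.68 against 0.154 to 0.982 CPM (2.57 ± 0.37, adjusted p = 4.7e-05). The largest falls, ENSRNOG00000059883 and ENSRNOG00000061436, overlapped between groups. The first fell by 1.99 with control library 4 at 13.1 CPM; it had -0.19 without that library (adjusted p = 0.656) and also lost its call without any 1 of the lithium libraries (adjusted p = 0.0645 to 0.0874) and in a fit of the 12 libraries only (0.0971); the second fell by 1.78 and lost its call without lithium library 1, 2 or 3 or control library 3, 4 or 6 (adjusted p up to 0.0906).

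Markers of blood and immune cells moved with the groups. T cell markers rose in 11 of 12 (median 1.23), with summed levels of 48.4 to 84.0 CPM in lithium and 29.3 to 44.3 CPM in control libraries, and Cd3e rose by 1.64. Macrophage and dendritic cell markers rose in 4 of 10 (452 to 595 CPM in lithium, 237 to 438 CPM in control libraries), and no endothelial marker of 8 was called. Red cell genes fell in all 6 tested (median -1.28), with summed levels of 325.5 to 873 CPM in lithium and 665 to 1747 CPM in control libraries; Hba1 had 98.0 to 358 against 184 to 565 CPM, and reads of the globin genes may be shared between copies. Only 2 of 8 adrenal cortex markers were matched and both rose, led by Cyp11a1, the first enzyme of steroid synthesis, at 10.7 to 30.9 CPM in lithium against 2.87 to 6.03 CPM in control libraries; Star, which carries cholesterol into mitochondria, was at 0.283 to 0.780 against 0 to 0.691 CPM and lost its call without lithium library 2 or control library 3, 4 or 5 (adjusted p = 0.0531 to 0.0566). The part of these cells in the genes described was not tested.

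The 30 genes with the largest changes at 14 days were then looked up at 28 days in other rats, in 1 fit of 24 libraries (6 a group and time) with the difference between times as a term. At 28 days 28 of the 30 had the same sign, 24 were called in the same direction, and 25 had a smaller log2 fold change in size. As they were chosen for their size at 14 days, a smaller value at 28 days is in part a consequence of that choice. The difference between times passed the threshold in 5 of the 30, and in 449 of the 14222 genes tested, or 3.16%: the fall of Alox15 was -0.35 at 28 days against -2.72 at 14 days (adjusted p of the difference = 0.00989), that of RGD1309350 -0.15 against -2.90 (0.00906) and that of Olr1332 -0.03 against -3.53 (0.0406), while Cdkn1a rose by 3.19 against 4.15 (0.0196) and Ccl20 by 2.68 against 4.92 (0.0463). Lithium library 1 of 28 days decided part of this count: without it 3 of the 30 differed, since Ccl20 and Olr1332 had adjusted p-values of 0.0533 and 0.0981. For Kcne1 and Aqp2 the values at 28 days were -5.45 and -2.85, and no difference between times was found (adjusted p = 0.65 and 0.371). Krt17 had a fitted value of 11 at 28 days (adjusted p of the difference = 0.857). With 1 count in control libraries at 14 days its fitted value rests on the floor, so a difference between times cannot be judged. The same holds for Bpifc, which had no control count at 14 days and fitted values of 7.99 at 14 days and 7.19 at 28 days. It is counted among the 25 genes with a smaller size at 28 days. Gatm and Pck1, chosen after their values were seen, had 0.01 and 0.65 at 28 days, against -1.59 and 1.64 at 14 days (adjusted p of the difference = 0.0189 and 0.0313). They were 2 of 15 further named genes whose response differed between times.

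**Figure D5:**
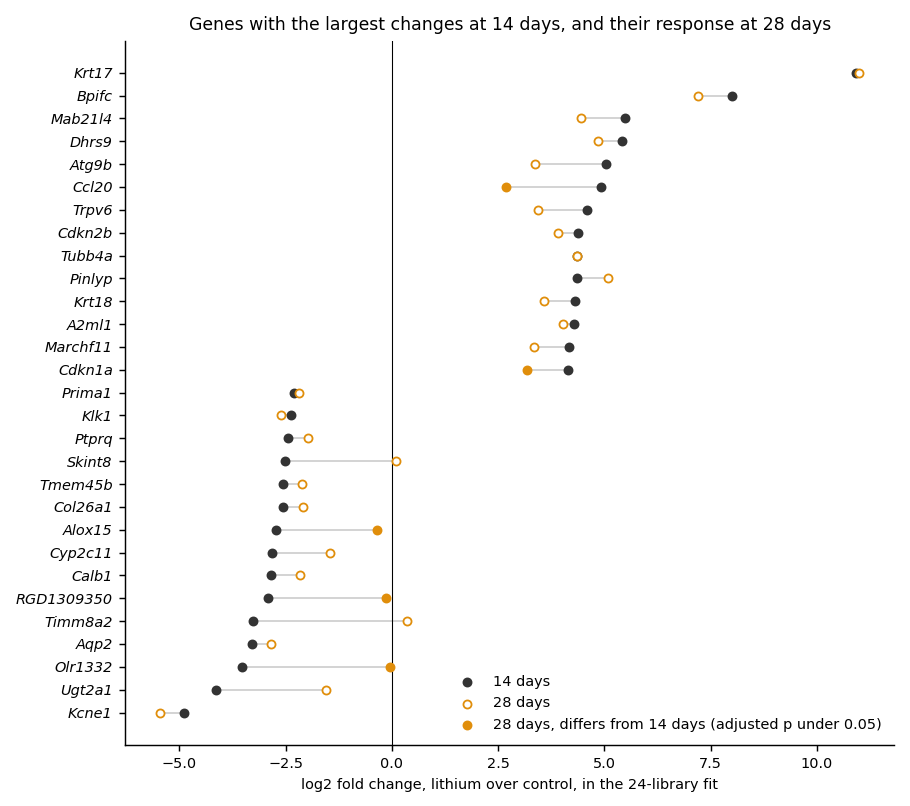
Log2 fold change, lithium over control, of 29 of the 30 genes with the largest changes at 14 days (dark points) and in other rats at 28 days (orange circles; filled where the difference between times passed the threshold). Krt17 has fitted values near 11 at both times, which rest on the floor with 1 control count at 14 days. Bpifc had no control count at 14 days, so its fitted value also rests on the floor. Filled circles mark 5 genes, among them Alox15 and Cdkn1a.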

How the data were processed

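Per the methods and the submitters' notes, the authors trimmed reads of stranded mRNA libraries (1 rat each) with Cutadapt, aligned them with HISAT2 2.1.0 to Rnor 6.0 and counted reads by gene with featureCounts; the notes give Cutadapt 0.2.6 and featureCounts 2.0.0, and the methods other versions. Raw counts were deposited. The DESeq2 tables of the authors also hold fold changes and p-values, which were not used. They gave the gene symbols and a signal column, the mean normalised count that the authors computed, which the deposited counts matched when lithium-amiloride library 2 was left out (median relative difference 6.52e-11, against 0.00943 with none left out), so it was left out here.

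Counts of the remaining 17 libraries were filtered (filterByExpr), scaled (TMM) and tested with edgeR 4.0.16 in R 4.3.3 (quasi-likelihood, 3 group means, Benjamini-Hochberg). CPM are counts scaled to a common library total after TMM. Intervals and floors (3 counts) cover counting error only. The fit was tested on simulated data. Alternatives were DESeq2 1.42.0, other scaling, filters, thresholds and libraries, and a replicate block.

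The genes, lists and families were chosen with earlier results of these data known. Named were the 15 largest rises and falls among called genes with a symbol, a mean of at least 1 CPM and no overlap, the 10 largest gains and losses in CPM among nuclear genes, the 2 largest rises and falls without a symbol, and members of lists and families with the largest change or the highest level. Named beyond these, after their values were seen, were Guca2a, Guca2b, Lamb3, Lama3, Itgb4, Krt19, Havcr1, Lcn2, Gdf15, Avpr2, Aqp1, Aqp3, Scnn1a, Scnn1b, Scnn1g, Hsd11b2, Slc8a1, Trpv5, Cyp24a1, Kcnq1 and Fbp1. Promoter windows were RefSeq's (GRCr8) and matched 6893 tested symbols. The 6-month libraries were not used here. Results for a few genes that these rules select are not reported here.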

Additional observations from a re-analysis of the deposited data

Results flagged for a closer look

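In 17 of 264 groups of 6 values looked at, 1 library stood apart from the other 5 of its group. Chance alone gives about 1 in 20 where values follow a normal distribution. Levels of genes with few counts do not, so the share found cannot be set against that rate. Control library 4 was low in total counts (10399818) and in genes with a count (16737), and high in Kynu (104 CPM) and ENSRNOG00000059883 (13.11 CPM).

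Among lithium libraries, library 2 was high in Txnip (581.7 CPM), library 3 in Hba1 (357.6 CPM) and Slc13a1 (734.7 CPM), library 4 in Cyp11a1 (30.93 CPM) and library 5 in RGD1309350 (0.8124 CPM). Lithium library 6 was high in Guca2a (82.61 CPM) and Skint8 (0.8502 CPM) and low in Star (0.2834 CPM).

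Among the other control libraries, library 2 was low in Hk1 (35.62 CPM), library 3 high in Atg9b (0.2267 CPM), library 5 low in Slco4a1 (1.336 CPM), and library 6 low in Anpep (1572 CPM) and high in Krt17 (0.0768 CPM).

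The response to lithium differed between 28 and 14 days, by the term for that difference in edgeR, in 20 of 128 named genes looked up. Epgn, Kcnn3 and Sprr1a, among the 128, had no value in that fit and were not tested. In all 20 that differed, the log2 fold change was smaller in size at 28 days. In genes that fell at 14 days the log2 difference, 28 days minus 14 days, was 3.501 for Olr1332, 2.756 for RGD1309350, 2.369 for Alox15, 1.604 for Gatm, 1.352 for Slco1a1, 0.9574 for Slc5a9, 0.9056 for Akr7a3, 0.8326 for Anpep, 0.6605 for Slc39a8 and 0.5955 for Hao2. In genes that rose at 14 days it was -2.243 for Ccl20, -1.457 for Lcn2, -1.008 for Cyp2e1, -0.9876 for Pck1, -0.9871 for Gdf15, -0.9622 for Cdkn1a, -0.9611 for Atf3, -0.7288 for Cldn4, -0.5934 for Krt8 and -0.5597 for Txnip. As most were named for their change at 14 days, a smaller value at 28 days is in part a consequence of that choice.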

How the results depend on the processing

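Of the 118 named genes called at 14 days, 111 kept their call in each of 19 alternatives other than the fold thresholds, and 7 lost it in at least 1 (Aadat, Kynu, Qprt, Slc20a1, Star and the fallen genes without a symbol ENSRNOG00000059883 and ENSRNOG00000061436); 0 changed direction. The counts of 1204 risen and 514 fallen genes became 509 and 167 at a fold threshold of 1, and 2174 and 1793 with no fold threshold, where risen genes were 54.8% of the calls, against 70.1%; fewer or more genes pass by construction. Leaving out 1 library gave 1082 to 1255 risen and 470 to 548 fallen genes. Among genes not called, leave-one-out values ran from -0.09287 to 0.006023 for Aqp1 and from -0.1581 to 0.09085 for Scnn1a. Same-numbered lithium and control libraries correlated between -0.0941 and 0.255 in their deviations, so the numbers were not treated as pairs, and 1 of 6 lithium libraries correlated best with its own number; a replicate block gave 1162 risen and 528 fallen genes. With the block Star (adjusted p = 0.0636 in edgeR) and ENSRNOG00000059883 (0.164) lost their calls, and Cyp24a1 (-1.705, adjusted p = 0.013) and Kcnq1 (0.5009) gained one. For the difference between 28 and 14 days, 3 of the 30 genes passed without lithium library 1 of 28 days and 4 with a replicate block. Of the 20 named genes that differed, 4 no longer passed without that library (Ccl20, Olr1332, Slco1a1 and Txnip), and 8 with the block (adjusted p = 0.0588 for Pck1, 0.0593 for Gdf15, 0.0618 for Akr7a3, 0.0656 for Olr1332, 0.0823 for Ccl20, 0.0895 for Txnip, 0.0919 for Cldn4 and 0.0948 for Atf3), with which Ugt2a1 passed (0.00986). Differences that did not pass turned sign for Krt17 (-0.4592, without that library) and, with the block, for Prima1 (-0.07483) and Tubb4a (0.04251); the cause was not tested. Depth limits genes with few counts: bounds or counting intervals are given for 6 genes with at most 3 counts in a group, and other genes with few counts, such as Kcne1, have fitted folds without one.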
